A study of Mus musculus with 19 samples.

Results

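The antigen receptor loci described here are 5 stretches of the mouse genome where B and T lymphocytes cut and rejoin gene segments to build their receptors. They were chosen by their position on the mm9 build, and were singled out as a group because of measured values, the difference between tumors and their own livers that is described first below. Between their first and last probes, Tcrb covered chr6:40809195-41542213, Tcra/Tcrd covered chr14:52901444-54895905, Igk covered chr6:67461346-70748190 and Igl covered chr16:19021327-19264567. Igh was taken from chr12:114402333 to the last probe of that chromosome, which ended at 121252543, and it thus held the stretch of the Igh gene segments, chr12:114402333-117295097 with 289 probes, and 452 probes beyond it. The array measured 1311 of its 221455 autosomal positions in these 5 regions, with 101 in Tcrb, 206 in Tcra/Tcrd, 741 in Igh, 244 in Igk and 19 in Igl. When the autosomes were divided into 11063 windows of 20 neighboring probes, 61 windows lay inside a locus, 36 in Igh, 11 in Igk, 10 in Tcra/Tcrd, 4 in Tcrb and none in Igl.

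The study made mice in which Mad2l1, a gene of the spindle assembly checkpoint, is deleted in hepatocytes by a Cre recombinase under the albumin promoter (AlbuminCre), together with changes in Trp53, on a mixed background of C57BL/6 and 129 mice. The strain labels give Mad2flox, p53flox and AlbuminCre for the HCA mice and Mad2flox, p53ser249 and AlbuminCre for the HCC mice, whose genotype label writes p53ser246+. Array comparative genomic hybridization (aCGH), in which sample DNA and control DNA compete for the same probes, was done with 1 array for each of 4 hepatocellular adenomas (HCA), of 6 carcinomas (HCC) and of 9 livers labelled as unaffected, and the value of a position is the log2 ratio of sample over control liver DNA from wild-type mice of the other sex. The HCAs came from 4 female mice aged 12 to 16.9 months, 2430 and 6199 being Mad2(f/f) p53(f/f) and 5884 and 5901 Mad2(f/f) p53(f/+). The HCCs came from 5 Mad2(f/f) p53ser246+ mice aged 12.3 to 16.2 months, 6240 and 6602 being female and 6487, 6565 and 6642 male, and mouse 6240 gave 2 HCCs (6240-4 and 6240-2). Each mouse also gave 1 unaffected liver, so every group shares the Mad2(f/f) genotype with AlbuminCre, and no liver here is from a wild-type mouse except in the control DNA. Tumor type and p53 genotype cannot be told apart, since no HCC came from a floxed p53 mouse. Nothing in the labels says that tumor cells were separated from other cells of the tissue. Deletion of the floxed alleles, which AlbuminCre makes in hepatocytes, was not analysed here, so the labelled tissue was not checked.

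Antigen receptor genes are inherited as arrays of variable (V), diversity (D) and joining (J) segments with constant (C) regions at one end. During lymphocyte development, the RAG recombinase joins single segments of each kind, and the DNA between them is in most cases deleted from the chromosome. T cells rearrange Tcrb and Tcra/Tcrd and B cells rearrange Igh and then Igk or Igl, whereas hepatocytes keep all of these loci in the inherited form. The Tcrd segments lie within Tcra and are removed when Tcra is joined. In RefSeq's GRCm38.p6 gene list, pseudogenes included, Tcrb holds 35 V, 2 D, 14 J and 2 C segments, Tcra/Tcrd 136 V, 2 D, 62 J and 2 C, Igh 183 V, 20 D, 4 J and 8 C, Igk 162 V, 5 J and 1 C, and Igl 3 V, 5 J and 4 C. This build differs from that of the array, so single segments could not be placed on the probes, and the stretches below are described by array coordinates. Tcrg, the remaining T cell receptor locus, was not analysed here.

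To see whether a locus departed from its own chromosome, the median log2 ratio of its probes was taken minus the median of all probes of that chromosome, and the value of the tumor was then set against that of the liver of the same mouse. Because these differences are the ones by which the loci were chosen, they are given as a description with no test of a single locus. The HCA of mouse 5901 stood apart at both T cell receptor loci. At Tcrb, the HCAs of mice 2430, 5884, 5901 and 6199 lay 0.045, 0.17, -0.31 and -0.018 from their own livers on the log2 scale. At Tcra/Tcrd, the same 4 tumors lay -0.017, 0.0037, -0.19 and -0.018 from their own livers. HCA 5901 was thus the lowest of 10 tumors at either locus. Relative to the chromosome, it was at 80.5% of its own liver over Tcrb and 87.7% over Tcra/Tcrd on the linear scale. In this tumor chromosome 6 itself differed from the liver by -0.14 and chromosome 14 by 0.21, so these percentages are not shares of the total signal. At the B cell loci this tumor was close to its liver or above it, with differences of 0.024 at Igh, -0.0035 at Igk and 0.11 at Igl.

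**Figure D1:**
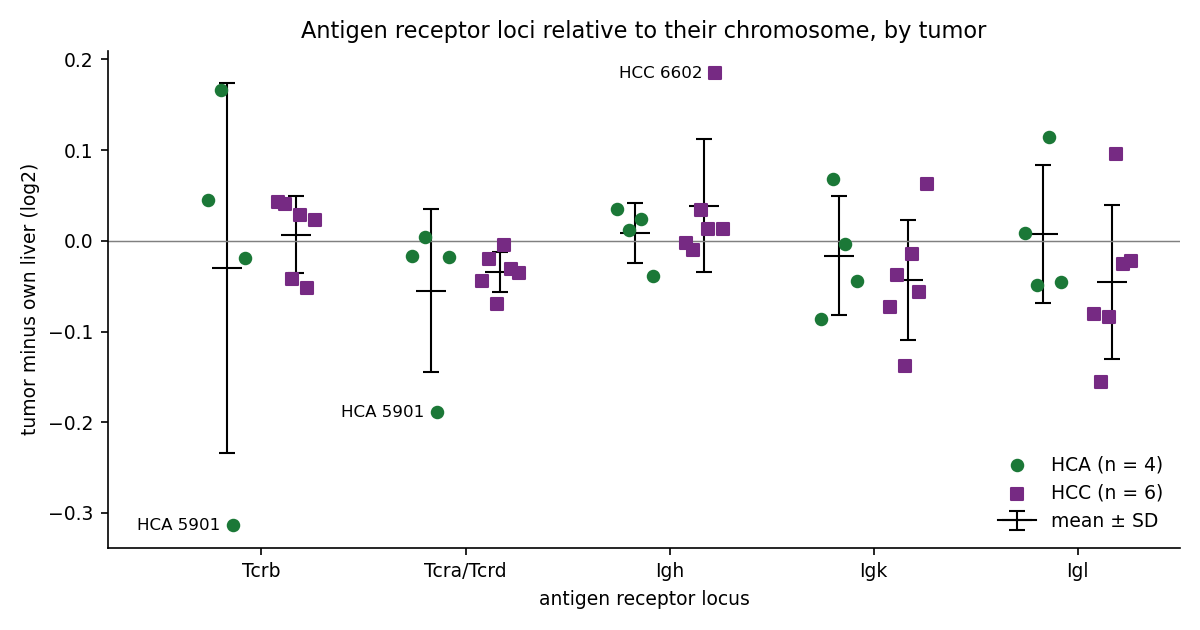
Difference between each tumor and its own liver (log2) at the 5 antigen receptor loci, each value being the locus median minus the chromosome median. Circles are the 4 HCAs, squares the 6 HCCs, and black bars the mean ± SD of each group. HCA 5901 is the lowest point at Tcrb (-0.31) and Tcra/Tcrd (-0.19), and HCC 6602 is the highest at Igh (0.18).

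The 6 HCCs showed no difference of this size at the T cell receptor loci. At Tcrb, they ranged from -0.052 to 0.042 around their own livers with a median of 0.026, and 2 of 6 were below 0. At Tcra/Tcrd, they ranged from -0.069 to -0.0043 with a median of -0.033, and 6 of 6 were below 0. HCA 5901 therefore lay outside the range of the 9 other tumors, which was -0.052 to 0.17 at Tcrb and -0.069 to 0.0037 at Tcra/Tcrd. The HCA mean was -0.030 ± 0.20 (SD, n = 4) at Tcrb and -0.055 ± 0.090 (SD, n = 4) at Tcra/Tcrd, and without HCA 5901 it was 0.064 and -0.010.

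The values of HCA 5901 were not evenly spread over the loci. The 6 lowest of all 11063 windows of this tumor were 3 windows of Tcra/Tcrd (-0.60, -0.52 and -0.51) and 3 of Tcrb (-0.49 each), and the lowest window elsewhere in the autosomes was at -0.33. Of all windows, 0.0994% were at or below a cut-off of -0.3 in HCA 5901, namely 11, of which 6 were in the 2 T cell receptor loci and none in Igh or Igk. In the other 9 tumors, 2.89% of all windows were at or below this cut-off in at least 1 tumor. None of these was among the 14 T cell receptor windows and 2 were among the 36 Igh windows.

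With windows of 10 probes, which were used to find the ends of the stretches after the values had been seen, a run of 6 neighboring windows at or below -0.3 covered chr6:41043508-41515707, which is 472 kb of Tcrb. A second run of 6 covered chr14:54304425-54746960, which is 443 kb at the constant-region end of Tcra/Tcrd. In HCA 5901 these were the longest runs of any chromosome, all others being 1 window long. Of all 22135 windows of 10 probes, 71 were at or below -0.3 in HCA 5901, and 12 of these were in the T cell receptor loci. The lowest window of 10 probes lay outside these loci, at -1.07, and the lowest inside them was at -0.69. All values of these stretches are relative to the chromosome median of each sample. Chromosome 6 itself differed from the liver by -0.14 and chromosome 14 by 0.21, so the percentages below are not shares of the total signal. Over the 60 probes of the Tcrb stretch, HCA 5901 was at -0.52 against control DNA and its own liver at -0.035. The chromosome-relative signal of the tumor was thus 71.4% of that of its liver, and 52 of 60 single probes were lower on this scale. Over the 60 probes of the Tcra/Tcrd stretch, HCA 5901 was at -0.57 against control DNA and its own liver at -0.0063. Here the chromosome-relative signal of the tumor was 67.9% of that of its liver, and 58 of 60 probes were lower on this scale. These probes were picked for being low, so the values describe the stretches and support nothing more.

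Outside the stretches the same loci were nearer to the chromosome level. The remaining 146 probes of Tcra/Tcrd, on both sides of its stretch, were at -0.039 in HCA 5901, within the range of the other tumors (-0.068 to -0.0041). The remaining 41 probes of Tcrb were at -0.11, below the other tumors (-0.017 to 0.28). When each locus was cut into 3 equal lengths, the constant-region end of Tcra/Tcrd was at -0.48 in HCA 5901 against -0.058 to 0.015 in the others. The middle was at -0.16, below the others (-0.14 to 0.025), and the far end at 0.082, above the others (-0.069 to 0.018). At Tcrb, the constant-region end was at -0.44, the middle at -0.51 and the far end at -0.19. The flanks of 1 Mb were at 0.0045 and 0.044 beside Tcrb and at 0.052 and -0.021 beside Tcra/Tcrd. At Tcrb both ends were sharp, the values changing between neighboring 10-probe windows from -0.12 to -0.54 and from -0.32 to 0.059. At Tcra/Tcrd the ends were gradual, the windows next to the stretch being at -0.25 and -0.30. Past the end of Tcra/Tcrd, the windows chr14:54968658-55012411 and chr14:55019341-55064377 were at -0.24 and -0.25 in HCA 5901, below the lowest of the other tumors (-0.026 and -0.23).

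**Figure D2:**
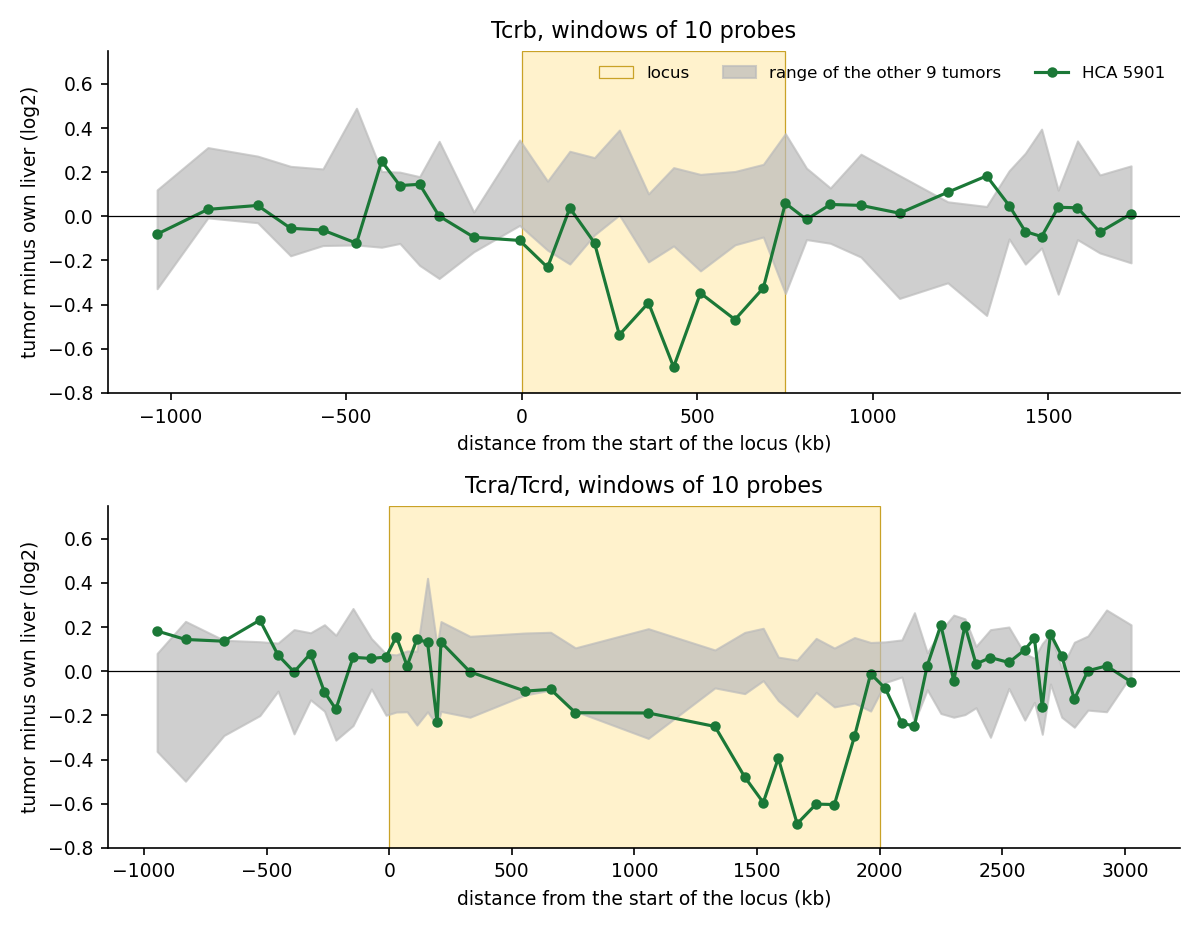
Difference between tumor and own liver (log2, relative to the chromosome median) in windows of 10 probes along Tcrb (top) and Tcra/Tcrd (bottom). The horizontal axis is the distance from the start of each locus in kb. The line is HCA 5901, the gray band spans the lowest to the highest of the other 9 tumors, and the shaded box is the locus. HCA 5901 falls to -0.68 in Tcrb and -0.69 in Tcra/Tcrd, is back near 0 on both sides of Tcrb, and has 2 further windows near -0.24 just past Tcra/Tcrd.

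For scale, the largest mean difference of any whole autosome between HCA 5901 and its liver was 0.44, on chromosome 15. Chromosome 6 as a whole differed by -0.14 and chromosome 14 by 0.21, and the locus values above are relative to those levels. HCA 5901 was scanned on another day than its own liver. Against the livers of mice 6199 and 6487, scanned on the same day as the tumor, the difference was -0.31 and -0.31 at Tcrb and -0.21 and -0.24 at Tcra/Tcrd. The size depended on the background correction: without it the Tcrb and Tcra/Tcrd values were -0.15 and -0.087, with normexp correction -0.14 and -0.11, and 3 of the 6 lowest windows were then in the T cell receptor loci. With 1 tumor of this kind there is no replicate, and the part of rearranged T cells in these values was not tested.

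HCA 5884 had the highest Tcrb value of all tumors (0.17), but its neighborhood was high as well. The flanks of 1 Mb beside Tcrb were at 0.19 and 0.17 in this tumor, and those beside Igk, on the same chromosome, at 0.17 and 0.17. Its Tcrb value relative to the chromosome was therefore no higher than that of the flanking DNA.

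At Igh, the heavy chain locus of B cells, HCC 6602 stood apart in the other direction. Relative to chromosome 12, its value was 0.18 above its own liver, whereas the other 5 HCCs lay between -0.010 and 0.034 and the 4 HCAs between -0.039 and 0.036. This difference came from the DNA beyond the gene segments. In the segment stretch alone, the value of HCC 6602 was 0.0068. The 452 probes beyond it to the end of the chromosome were at 0.24 in HCC 6602, and 21 of 21 windows there were above 0, with a median of 0.25. In the segment stretch 7 of 14 windows were above 0, with a median of 0.0092. The position that best separated low from high windows on chromosome 12 of this tumor was 117725012, after which 19 of 19 windows were above 0. Chromosome 12 as a whole was at -0.26 in HCC 6602 relative to its liver. The values above are relative to that level, so they do not show a gain over the liver.

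**Figure D3:**
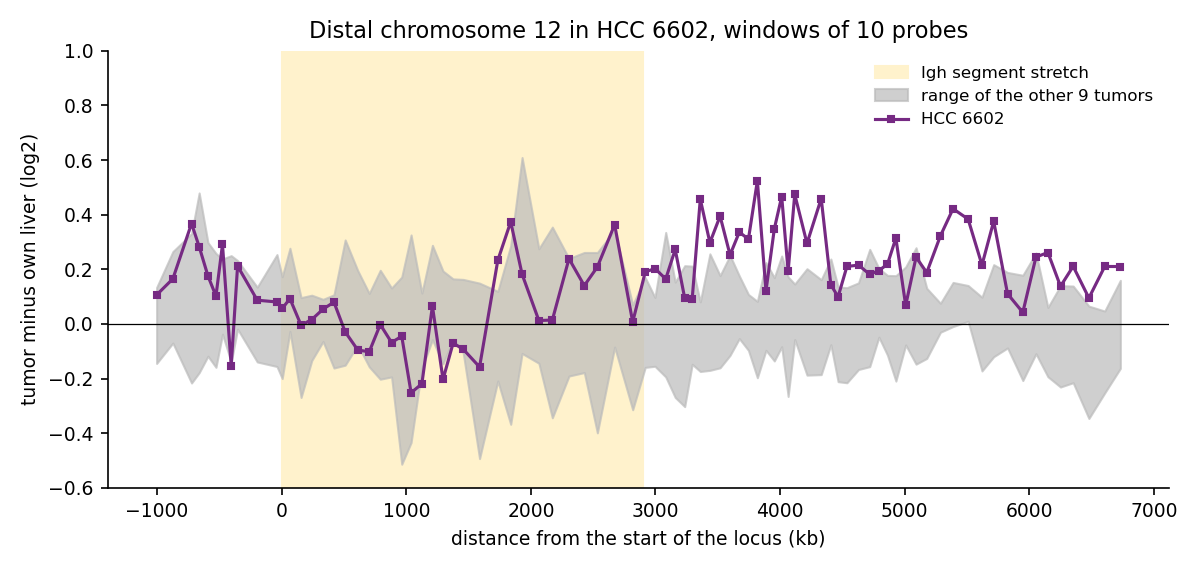
Difference between tumor and own liver (log2, relative to the chromosome 12 median) in windows of 10 probes along distal chromosome 12. The horizontal axis is the distance from the start of the Igh region in kb. The line is HCC 6602, the gray band spans the other 9 tumors, and the shaded box is the stretch of the Igh gene segments. HCC 6602 lies mostly within the band inside the box and mostly above it beyond.

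At the light chain loci no single tumor was as far from the others as HCA 5901 was at the T cell receptor loci. At Igk, 8 of 10 tumors were below their own liver, the HCAs between -0.086 and 0.068 and the HCCs between -0.14 (HCC 6487) and 0.062. At Igl, 7 of 10 tumors were below, and the values ran from -0.16 in HCC 6240-2 to 0.11 in HCA 5901. Igl was covered by 19 probes only. The lowest Igk window over the tumors, chr6:67748216-67990187, averaged -0.085, and the highest, chr6:70088742-70336970, averaged -0.0035. None of the 11 Igk windows was at or below -0.3 in any tumor. The parts of Igk at the constant-region end were at -0.023 ± 0.12 (SD, n = 4) in the HCAs and -0.030 ± 0.061 (SD, n = 6) in the HCCs, and those of Igh at 0.013 ± 0.021 and 0.015 ± 0.042.

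HCCs and HCAs were then set against each other. The loci had been chosen on these same differences, so that no p is given for a locus. The HCC mean exceeded the HCA mean by 0.037 at Tcrb, 0.021 at Tcra/Tcrd and 0.031 at Igh, and the difference was -0.026 at Igk and -0.052 at Igl, with 6 HCCs and 4 HCAs. Each of these differences was smaller than the SD within either group (for Tcrb 0.042 in the HCCs and 0.20 in the HCAs, and for Igl 0.085 and 0.076). In the single scan day that held both tumor types, with 1 HCC and 2 HCAs, the differences were 0.12, 0.034, 0.042, -0.11 and -0.12 for Tcrb, Tcra/Tcrd, Igh, Igk and Igl. Across all windows, limma called 0.0% between HCCs and HCAs at a Benjamini-Hochberg adjusted p under 0.05 (857 of 11063 had an unadjusted p under 0.05). This fit counted the 2 HCCs of mouse 6240 as separate samples. With them averaged, limma again called 0 windows, and 588 of 11063 had an unadjusted p under 0.05.

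In the unaffected livers, the T cell receptor loci were close to the level of control liver DNA. At Tcrb, the 9 livers ranged from -0.10 (mouse 6240) to 0.012 (mouse 6642) with a mean of -0.046 ± 0.034 (SD, n = 9), and 8 of 9 were below 0 (exact sign-flip test, two-sided, p = 0.012). At Tcra/Tcrd, they ranged from -0.0031 to 0.061 with a mean of 0.021 ± 0.024 (SD, n = 9), and 1 of 9 was below 0 (exact sign-flip test, p = 0.016). For comparison, at least 8 of 9 livers were below their chromosome median in 12.5% of all 20-probe windows and above it in 12.7%, although a window is a smaller unit than these loci. Both calls were lost with normexp background correction (Tcrb -0.0063, exact p = 0.57, and Tcra/Tcrd 0.0069, exact p = 0.32). The mean was 0.0098 ± 0.035 at Igh (exact p = 0.41), -0.0066 ± 0.041 at Igk (exact p = 0.63) and -0.018 ± 0.084 at Igl (exact p = 0.53), with 9 livers each. The control DNA has no spread of its own in these tests. A shared offset of the livers and one of the control DNA therefore cannot be told apart.

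**Figure D4:**
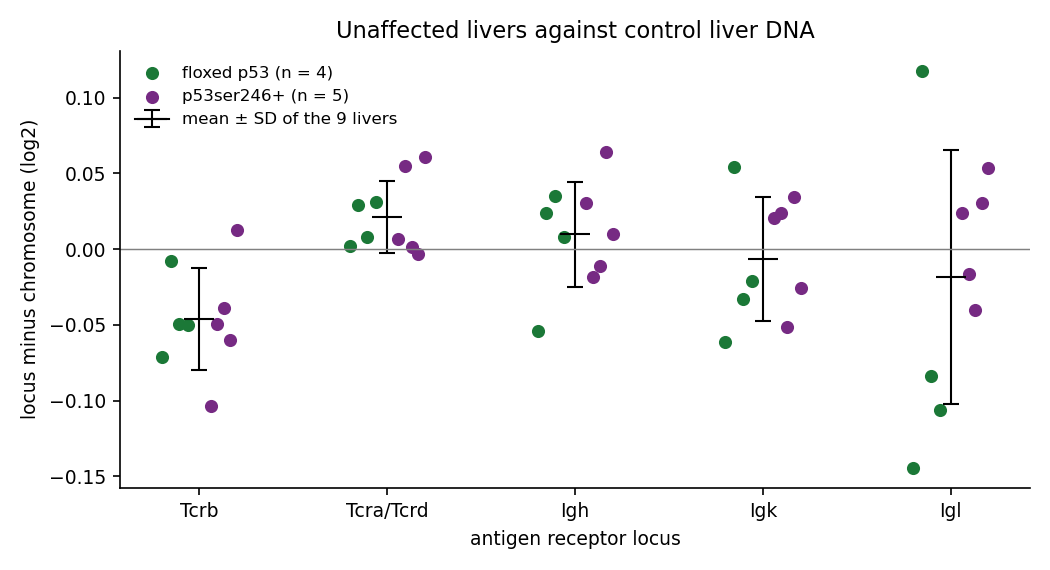
Locus median minus chromosome median (log2, liver over control liver DNA) in the 9 unaffected livers at the 5 loci, colored by p53 genotype, with the mean ± SD of the 9 livers. Livers of both genotypes overlap at every locus, and Igl, with 19 probes, spreads widest.

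The livers of the 5 p53ser246+ mice and the 4 floxed mice overlapped at every locus. The genotype difference, p53ser246+ minus floxed, was -0.0032 at Tcrb (exact permutation test, two-sided, p = 0.90), 0.0066 at Tcra/Tcrd (exact p = 0.68), 0.012 at Igh (exact p = 0.63), 0.016 at Igk (exact p = 0.56) and 0.065 at Igl (exact p = 0.27), with 5 and 4 livers. When each of the 9 livers was left out in turn, the Igl difference ran from 0.034 to 0.12 (exact permutation p from 0.018 to 0.59). The largest difference and lowest p came without the liver of mouse 5884, which is 1 run picked from 9 at a locus of 19 probes. Scan day 2 held 1 liver of each genotype, and the other days held 1 genotype only. Across all windows, limma called 0.0362% at an adjusted p under 0.05, which is 4 windows, none of them in the antigen receptor loci. In female mice only, with 2 p53ser246+ and 4 floxed livers, it called 172 of 11063 windows, 2 of them among the 61 locus windows. Both were in Igh and close to the threshold. They were chr12:115325990-115467040 (0.33 higher in p53ser246+, limma adjusted p = 0.046) in the segment stretch and chr12:117604395-117720219 (0.23 higher, limma adjusted p = 0.045) beyond it. The 2 p53ser246+ livers, of mice 6240 and 6602, were at 0.47 and 0.31 in the first window and 0.26 and 0.14 in the second. Their arrays had the highest noise of single probes of all arrays (SD 0.42 and 0.33). HCC 6240-4, HCC 6240-2 and HCC 6602 were at 0.054, 0.29 and 0.075 against control DNA in the first window. In the second they were at 0.096, 0.11 and 0.29.

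Although the median of Igh was near 0 in the livers, the stretch of the gene segments differed strongly between mice. Of its 289 probes, 39.1% were among the 5% of autosomal probes with the largest SD over the 9 livers, against 7.52% of the 452 probes beyond. At the other loci 1.98% (Tcrb), 2.91% (Tcra/Tcrd), 2.87% (Igk) and 0 of 19 (Igl) were among them. The SD over the livers was above 0.2 in 0.307% of all windows and in 6 of the 14 windows of the Igh segment stretch. The most variable Igh window, chr12:116515964-116781656, had the fourth largest SD of the autosomes (0.51).

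In that window the liver of mouse 2430 was at -1.002 against control DNA, those of 5884, 5901, 6240 and 6602 at 0.54, 0.65, 0.47 and 0.63, and those of 6199, 6487, 6565 and 6642 at 0.11, 0.087, 0.067 and 0.15. Mouse 2430 was thus far below, and the other 8 mice lay in 4 high and 4 middle values. In the next window, chr12:116789190-116988580, the order was turned: the liver of 2430 was at 0.21, those of 5884, 5901, 6240 and 6602 at -0.97, -0.76, -0.72 and -0.76, and those of 6199, 6487, 6565 and 6642 at -0.10, -0.36, -0.45 and -0.43. The mice that were high in one window were low in the other. The 3 male livers, which were hybridized against female control DNA, were all among the middle values, so that for them mouse and control DNA cannot be told apart. The 6 female livers shared the same kind of control and still covered the whole range.

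**Figure D5:**
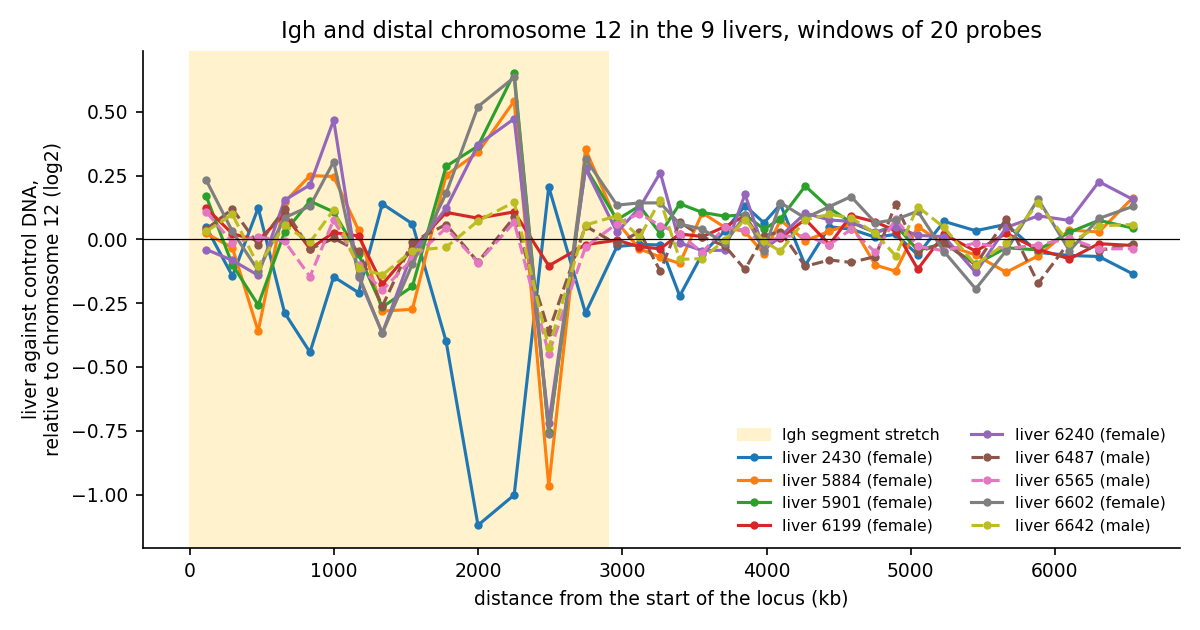
Log2 ratio of the 9 unaffected livers against control liver DNA in windows of 20 probes, relative to the chromosome 12 median, against the distance from the start of the Igh region in kb. Solid lines are female and dashed lines male mice, and the shaded box is the stretch of the gene segments. The livers fan out between -1.12 and 0.65 inside the box and lie close together beyond it.

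Relative to the chromosome 12 median, the tumors carried the pattern of their own mouse. In chr12:116515964-116781656 HCA 2430 was at -0.63, HCA 5884, HCA 5901, HCC 6240-4, HCC 6240-2 and HCC 6602 lay between 0.51 and 0.76, and HCA 6199, HCC 6487, HCC 6565 and HCC 6642 lay between 0.018 and 0.32. Most of these differences between mice therefore cancel when a tumor is set against its own liver. HCA 2430 kept the largest remainder in the 2 most variable windows, being 0.37 above its liver in this window and 0.38 above it in the window before, chr12:116289125-116506134. Elsewhere in the segment stretch, HCC 6240-4 had a remainder of larger size, at -0.41 from its liver in chr12:115325990-115467040. In HCA 2430 chromosome 12 as a whole was at -0.30 relative to its liver. The middle of the 3 equal parts of the Igh segment stretch stood at 0.18 in HCA 2430, the highest of the 10 tumors.

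Across the 10 tumors, the Tcrb and Tcra/Tcrd differences had a Pearson r of 0.92 and a Spearman rho of 0.66. These are the values that chose the loci, and they are given with no p. Without the 2 tumors farthest from the median of Tcrb, one of which is HCA 5901, r was 0.44, so the relation rests on those tumors.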

How the data were processed

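Agilent 2-color Mouse Genome CGH 244K arrays were scanned and read by the authors with Feature Extraction 10.5.1.1, per the file headers with spatially detrended background, linear dye normalization and probe positions on mm9. The deposited log10 ratios of Cy5 (sample) over Cy3 (control DNA) were multiplied to log2. The deposited table of all samples held the same values to within 5e-10. The intensity columns that the authors deposited for each channel, foreground and background, served the alternative corrections.

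Control and flagged spots were left out, spots of a probe averaged and each array centered on its autosomal median. A locus value is its median minus the median of its chromosome. Across windows limma 3.58.1 (R 4.3.3) was used with Benjamini-Hochberg adjustment. Liver values were tested by exact permutation or sign flips in Python 3.11.15 with scipy 1.17.1. Tests of the tumor differences at single loci and of 15 relations across tumors were planned, but their p-values are not given because the loci were chosen on those values. The scripts were tested on simulated data. The alternatives are described in the closing section. The genes or regions named were the 5 loci, their 3 equal parts and flanks, and the windows with the lowest and highest mean over the tumors. The Igh windows most variable over the livers and the stretches in HCA 5901 were picked after their values were seen. The loci and all lists were chosen with earlier results of these data known.

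The number of arrays limits the precision. The median signal over local background was 1.84 to 4.95 in Cy5 and 3.06 to 4.89 in Cy3, and the noise of single probes had an SD of 0.18 to 0.42. Nothing says that the samples were hybridized more than once, so p-values measure the spread between mice and arrays together. In the limma comparison of HCCs and HCAs, the 2 HCCs of mouse 6240 counted as separate samples unless they were averaged. Tumors and livers were paired by mouse from the labels. Over the 1% of positions most variable between livers, 10 of 10 tumors correlated best with their own liver (r from 0.43 to 0.83, against at most 0.38 for any other liver).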

Additional observations from a re-analysis of the deposited data

Results flagged for a closer look

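Of 15 sets of values (5 loci in the HCAs, the HCCs and the livers), 2 held a sample farther from the others than the 95% limit of Dixon's test allows. That limit marks about 1 in 20 sets by chance where the sets were not chosen by their values. The rate does not hold for the tumor sets. At Tcra/Tcrd, HCA 5901 lay -0.19 from its own liver while the other 3 HCAs lay between -0.018 and 0.0037. At Igh, HCC 6602 lay 0.18 above its own liver relative to chromosome 12, which became 0.0068 with the Igh gene segments alone. HCA 5901 was not marked at Tcrb (-0.31), where the other 3 HCAs themselves spread from -0.018 to 0.17. The tumor values are the ones by which the loci were chosen, so both marks are a description and not independent evidence.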

How the results depend on the processing

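Of 488 recomputed locus values, 465 kept their direction and side of the threshold, or moved by less than the spread between samples, and the cause was not tested for the others unless stated. HCA 5901 at Tcrb and Tcra/Tcrd was at -0.14 and -0.11 with normexp correction, -0.15 and -0.087 with no background correction, and at -0.21 and -0.24 at Tcra/Tcrd against the livers of mice 6199 and 6487 (chosen after seeing the data). Of its 6 lowest windows, 3 were in the T cell receptor loci with normexp and 3 with no correction, 5 with only probes well above background or windows of 10 probes, and 6 otherwise. With windows of 10 probes the lowest window, at -1.07, lay outside these loci. HCC 6602 at Igh was 0.064 against the flank, 0.0068 with the Igh gene segments alone, 0.12 with normexp and 0.10 with no correction. The HCC mean was -0.046 at Igh against the flank, and -0.0073 (normexp) and -0.011 (no correction) at Tcra/Tcrd. Livers against control at Tcra/Tcrd gave 0.0092 by means, -0.0051 against the flanks, which turns the sign, 0.0069 with normexp, 0.0028 with no correction and 0.019 with loess, and at Tcrb -0.0063 and -0.019 with normexp and no correction. None of these passed the threshold. Leaving out single livers moved the Igl genotype difference from 0.034 to 0.12.

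Without the pairing of each tumor with its own liver (no block by mouse), the HCC minus HCA differences were 0.024, 0.025, 0.045, -0.0074 and 0.014 at Tcrb, Tcra/Tcrd, Igh, Igk and Igl, and limma called 5 windows in place of 0. Of all 11063 windows limma called 54 between HCCs and HCAs in female mice only and 8 with scan day as a block. In both fits 0 of the 61 locus windows were called, which is a description only, since the loci were chosen on these differences. Between liver genotypes limma called 13 of 22135 windows of 10 probes, 0 with normexp (168 at an unadjusted p under 0.05), 7 with no background correction and 8 with loess. It called 0 without the variable probes (1019 unadjusted), 2 with scan day as a block and 2 to 10 with single livers left out. In female mice only it called 172 of 11063 windows, 2 of them among the 61 locus windows, both in Igh.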
